A study of Oryctolagus cuniculus with 9 samples.

Results

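IER3, TRIB1 and CSRNP1 are 3 immediate early genes, and they were followed here across the estradiol concentrations of the series as 3 of the 19291 genes in its tables. All 3 had enough counts to be tested, as did 12324 genes in all. They were chosen by their measured levels in these same libraries: they lie outside the EGR and AP-1 families, and the order of their levels over the concentrations differs between them. Their differences between groups are therefore a description, given with errors and without p-values. The rule set no threshold.

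Immediate early genes are switched on within minutes by growth factors, stress or cytokines, without new protein synthesis, and many of their products shut off the signal that induced them. IER3, also called IEX-1, is a small stress-induced protein that affects cell survival and ERK signalling, and its gene is a target of NF-κB and p53. TRIB1 is a pseudokinase of the Tribbles family that brings the ubiquitin ligase COP1 to the transcription factor C/EBPα and also binds MEK1. CSRNP1, a cysteine- and serine-rich nuclear protein, is a transcriptional activator first described as induced by axin, the scaffold of the β-catenin destruction complex.

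The cells were HA-VSMC, an established line whose organism is labelled as Oryctolagus cuniculus, the rabbit. A line of this name is known as human aortic smooth muscle, and gene-level tables gave no check of the species. The 3 groups of 3 libraries were a control, a group titled 50 nM and a group titled 250 nM, these being concentrations of β-estradiol, the main natural estrogen. It was dissolved in DMSO with sodium hydrogen carbonate and given for 48 h; the protocol names only the 250 nM concentration. All groups shared RPMI1640 medium with fetal bovine serum. The controls also carry the treatment tag estrogen, are grouped here by title, and are not said to have received the vehicle. No label says that replicates came from separate cultures, so errors measure the spread between these libraries, which may be technical. The series asks by which pathway estrogen contributes to adenomyosis, the growth of endometrium within the uterine muscle.

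The count table held 54718407 to 72274464 units a library, about 13679602 to 18068616 fragments at 4 units per fragment. Of 11 smooth muscle markers, 9 were in the table, led by ACTA2 (smooth muscle actin) at 1286 FPKM (fragments scaled to gene length and library size). TPM2 had 998 FPKM, CALD1 424 FPKM and SMTN 27.8 FPKM. MYH11, MYOCD, LMOD1 and MYLK were at 5.18, 0.406, 0.450 and 0.443 FPKM, and DES was listed at 0. Markers that define endothelial cells, leukocytes and epithelium were near 0: PECAM1 had 0.202 FPKM, PTPRC 0.00224 FPKM and CDH1 0.00426 FPKM, and EPCAM was listed at 0. An exception was the keratin gene KRT14 at 37.8 FPKM. Of 8 fibroblast markers 7 were over 1 FPKM, and the 8 summed ran from 3179 to 3256 FPKM in the controls, 3375 to 3588 FPKM at 50 nM and 3439 to 3563 FPKM at 250 nM, led by the collagen genes COL1A1 and COL3A1 at 2076 and 1210 FPKM. These 2 genes make up most of that sum. The 9 smooth muscle markers summed overlapped between the groups. They ran from 2705 to 2866 FPKM in the controls, 2627 to 2800 FPKM at 50 nM and 2687 to 2742 FPKM at 250 nM. Fewer cells of a type and less RNA per cell cannot be told apart in such samples. The part of the difference in the fibroblast sum in the values below was not tested.

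IER3 had its lowest level at 50 nM. In the controls it had 337, 292 and 304 CPM (counts scaled to library size with TMM factors, which correct for composition) in replicates 1, 2 and 3. At 50 nM the values were 202, 194 and 201 CPM, and at 250 nM they were 289, 286 and 298 CPM. Every 50 nM library lay below every other library, and the 250 nM values reached into the lower end of the control range. Group means were 311 ± 23.0, 199 ± 4.51 and 291 ± 6.08 CPM (SD, n = 3 each). The 50 nM level was 1.56-fold below the control (log2 difference -0.64 ± 0.06, estimate ± SE), and 250 nM lay 1.46-fold above 50 nM (0.55 ± 0.06). Between 250 nM and control the difference was -0.09 ± 0.06, with overlapping libraries; it was -0.03 without control replicate 1, the highest of the 9. The order of levels was control, 250 nM, 50 nM, and its first 2 places did not differ beyond their spread.

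TRIB1 stood on either side of the control. The controls had 10.7, 10.4 and 12.3 CPM, the 50 nM libraries 10.4, 9.39 and 7.39 CPM, and the 250 nM libraries 16.0, 15.04 and 12.5 CPM. The 50 nM and 250 nM groups were apart, the lowest 250 nM library lying 1.201-fold above the highest 50 nM library. The controls nearly met both: the highest 50 nM library and the lowest control differed by a factor of 1.002, and the lowest 250 nM library stood 1.016-fold above the highest control. On the FPKM scale the 250 nM and control libraries overlapped (11.0 to 14.1 against 9.30 to 11.2 FPKM). Means were 11.2 ± 1.02 CPM in the control, 9.07 ± 1.55 CPM at 50 nM and 14.5 ± 1.80 CPM at 250 nM (SD, n = 3 each). The log2 difference from control was -0.30 ± 0.13 at 50 nM and 0.38 ± 0.13 at 250 nM, and 250 nM exceeded 50 nM by 0.68 ± 0.13, which is 1.60-fold. The 50 nM value rests in part on replicate 3, the lowest library, and without it the difference from control was -0.17. The order was 250 nM, control, 50 nM. Libraries of 50 nM lay below the controls on both scales, by the narrow margin given. The 250 nM mean was above the control mean on both scales, but the separation of their libraries needed the TMM factors. In CPM without these factors the 250 nM and control libraries overlapped, as they did in FPKM.

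CSRNP1 was higher at both concentrations. Its controls had 24.5, 22.6 and 24.6 CPM, the 50 nM libraries 30.3, 29.0 and 32.1 CPM, and the 250 nM libraries 32.6, 35.6 and 32.8 CPM. All 6 estradiol libraries lay above all 3 controls, and the 2 concentrations lay next to each other, separated by a factor of 1.016. Means were 23.9 ± 1.14, 30.5 ± 1.54 and 33.7 ± 1.69 CPM (SD, n = 3 each). The difference from control was 1.28-fold at 50 nM (log2 0.35 ± 0.07) and 1.41-fold at 250 nM (0.49 ± 0.07). The step from 50 nM to 250 nM was 0.14 ± 0.07. Levels thus ran 250 nM, 50 nM, control. The 95% interval of the step between the concentrations, -0.01 to 0.30, included 0, so the first places of that order did not differ beyond their error.

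**Figure D1:**
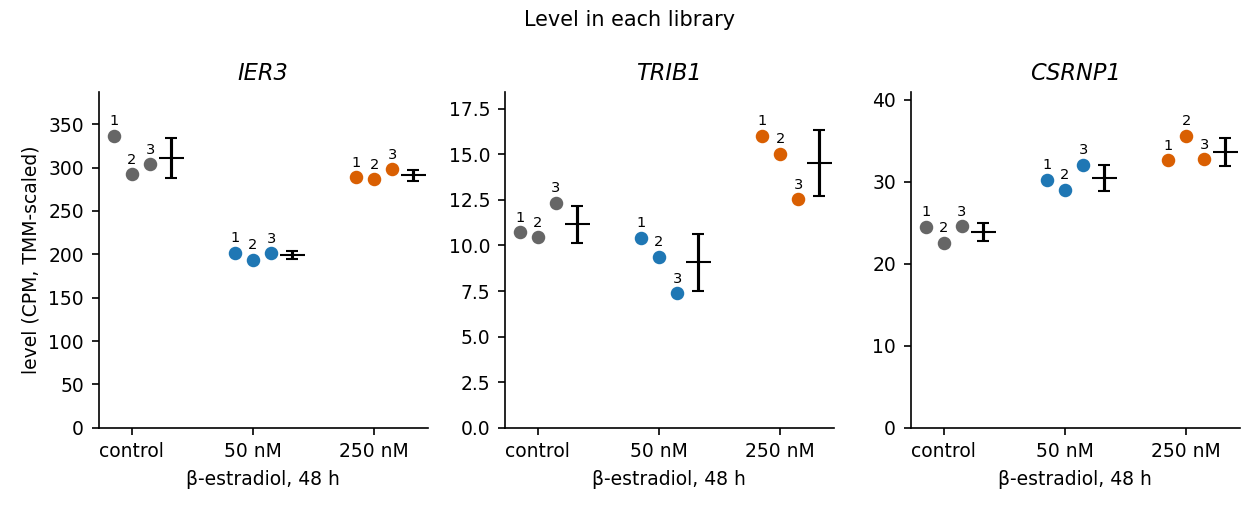
Level of IER3, TRIB1 and CSRNP1 in CPM (vertical axes, from 0) in the control, 50 nM and 250 nM groups; points are libraries with their replicate number, and the bar beside them is the mean with its SD (n = 3). IER3 is lowest at 50 nM (199 CPM), TRIB1 is highest at 250 nM (14.5 CPM) with controls between the concentrations, and CSRNP1 is above the control (23.9 CPM) in all estradiol libraries.

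Libraries of the compared groups did not overlap for 3 of the 3 genes at 50 nM against control, where 19% of the 12324 genes were likewise apart. The count was 2 of 3 for 250 nM against control (15.5% of all genes) and 3 of 3 for 250 nM against 50 nM (11.5% of all genes). As the genes were chosen on these contrasts, nothing is read from these counts.

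The genes differed in depth and in the spread between libraries. At 50 nM and at 250 nM the genes with fewer fragments had the larger spread. In the control this order was broken, as IER3 (7.41%) varied more than CSRNP1 (4.77%). IER3 rested on about 2748 to 5516 fragments a library, a counting error of 1.35% to 1.91%. Its coefficient of variation over libraries was 7.41% in the control, 2.27% at 50 nM and 2.09% at 250 nM, so the control spread was well above counting error. CSRNP1 rested on about 352 to 587 fragments, with a counting error of 4.13% to 5.33% and a variation between libraries of 4.77% to 5.05%, about the size of counting error itself. TRIB1, with about 101 to 239 fragments and a counting error of 6.47% to 9.96%, varied by 9.15% in the control, 17.1% at 50 nM and 12.4% at 250 nM, the last 2 above its counting error. These counting errors cover sampling only.

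Per unit of length, IER3 was by far the most abundant of the 3. Its controls had 647 ± 52.7 FPKM, TRIB1 had 10.1 ± 0.974 FPKM and CSRNP1 had 3.95 ± 0.222 FPKM (SD, n = 3 each). By mean FPKM over all libraries, IER3 ranked 128th of the 12324 genes tested, TRIB1 5781st and CSRNP1 7981st. The order of TRIB1 and CSRNP1 turned with the unit, since CSRNP1 had more counts. The deposited values imply a length of 0.491 kb for IER3, 1.13 kb for TRIB1 and 6.17 kb for CSRNP1, a 12.6-fold range, so levels per length depend on the gene models used. Of the rows, 5973 carry only an Ensembl rabbit identifier, but no source here names the annotation or its release.

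Ratios taken within a library do not depend on how libraries are scaled. As the genes were chosen for orders that differ, differences in these ratios between groups follow from that choice and are only described. The FPKM ratio of IER3 to CSRNP1 was 156 to 173 in the controls, 79.0 to 84.0 at 50 nM and 101 to 114 at 250 nM, with no overlap between any 2 groups. TRIB1 to CSRNP1 was 2.38 to 2.73 in the controls, 1.25 to 1.87 at 50 nM and 2.08 to 2.67 at 250 nM. Here the 50 nM group stood apart and the other 2 overlapped. For IER3 to TRIB1 the controls had 56.9 to 72.6, the 50 nM libraries 44.8 to 63.1 and the 250 nM libraries 41.7 to 54.97. The 250 nM group lay below the controls in this ratio, and 50 nM overlapped both.

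The close relatives of the 3 genes were compared next, and 0 of the 3 tested passed in any comparison with edgeR or DESeq2. Over all genes the edgeR test passed 3.25% at 50 nM against control, 0.308% at 250 nM against control and 0.325% at 250 nM against 50 nM. At an unadjusted p under 0.05, 1 relative (TRIB2) would pass against control at either concentration and 0 between the concentrations. TRIB2, which like TRIB1 recruits COP1 to C/EBP proteins, had 18.2 ± 0.657 FPKM in the control, above TRIB1. Its log2 difference was 0.18 ± 0.07 at 50 nM (edgeR adjusted p = 0.208) and 0.21 ± 0.07 at 250 nM (adjusted p = 0.354, edgeR). TRIB3, the stress-induced member of the family, had 8.34 ± 1.10 FPKM in the control and differences of 0.16 ± 0.12 (edgeR adjusted p = 0.615) and 0.22 ± 0.12 (edgeR adjusted p = 0.655). At 50 nM, where TRIB1 was lower than the control, both relatives had positive values, though the difference between family members was not tested. CSRNP2, at 19.3 ± 0.597 FPKM in the control, had -0.01 ± 0.07 at 50 nM (edgeR adjusted p = 0.963) and -0.10 ± 0.07 at 250 nM (edgeR adjusted p = 0.747). CSRNP3 was listed at 0 in all 9 libraries, and 3 fragments a library would correspond to at most 0.219 CPM. IER2, IER5 and IER5L were not analysed here, as no row carries their symbols.

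**Figure D2:**
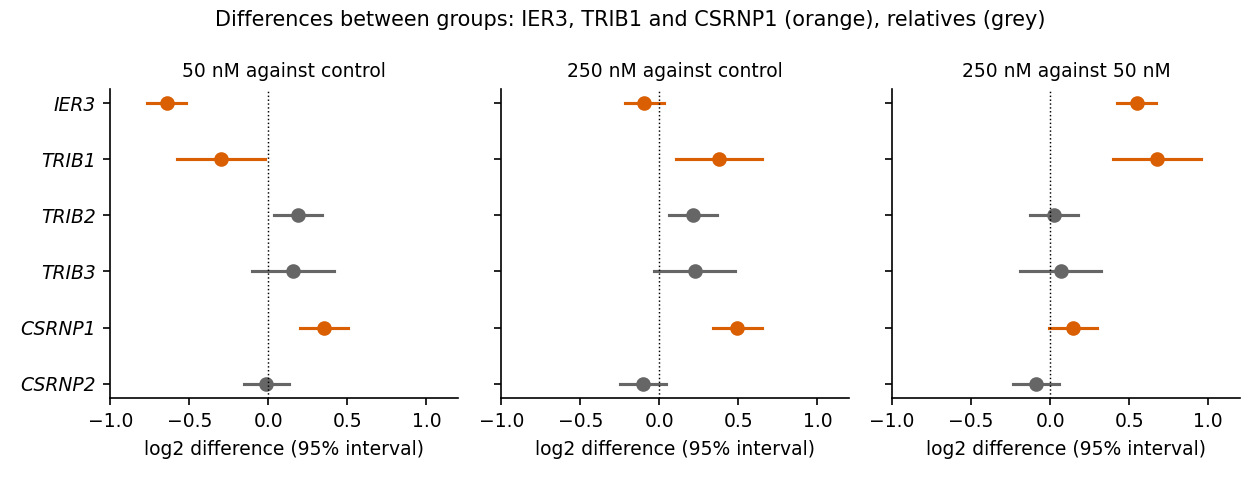
Log2 differences with 95% intervals (horizontal axis) for IER3, TRIB1 and CSRNP1 (orange, description only) and their relatives TRIB2, TRIB3 and CSRNP2 (grey) in the 3 comparisons. IER3 lies at -0.64 for 50 nM against control and at -0.09 for 250 nM; TRIB1 changes sign between the 2 concentrations; CSRNP1 is positive at both; CSRNP2 stays near 0.

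Partners of these proteins were looked at through lists of textbook partners. For IER3 these were the ERK kinases, the apoptosis regulators MCL1 and BCL2L11, and subunits of protein phosphatase 2A, whose B56 subunits IER3 binds. Of 16 symbols 12 were tested, and 0 passed with edgeR in any comparison. Over all genes edgeR passed 3.25% at 50 nM, 0.308% at 250 nM and 0.325% between the concentrations. At such shares a count of 0 in a list this short says nothing about its genes. At an unadjusted p under 0.05 there were 1 at 50 nM, 2 at 250 nM and 0 between the concentrations. DESeq2 called 1, 0 and 0, against 702, 140 and 99 of all 12324 genes. The gene called by DESeq2 was BCL2L11, which encodes the death inducer BIM, at 0.58 ± 0.16 for 50 nM (edgeR adjusted p = 0.0622); it was named after its values were seen. Of 21 symbols for relatives and partners of TRIB1, 13 were tested. CEBPA, the gene of C/EBPα, was not analysed here, as no row carries its symbol. Of the 13 tested, 1 fell and 0 rose at 50 nM (7.69%, against 3.25% of all genes). At 250 nM 0 passed (2 at an unadjusted p under 0.05 with edgeR, 0 with DESeq2). Between the concentrations 0 passed (1 and 0). At 50 nM an unadjusted p under 0.05 was reached by 2 higher genes (TRIB2 and DDIT3) and 1 lower, and DESeq2 called 1 higher and 1 lower. The higher one was DDIT3, the gene of the stress-induced factor CHOP, at 0.36 ± 0.10 (edgeR adjusted p = 0.061). The gene that fell was MAP2K4, a kinase of the JNK pathway (-0.26 ± 0.07, edgeR adjusted p = 0.0471), and its call was lost under 12 of 20 other settings, RLE and upper-quartile factors among them. Of the 9 libraries, leaving out any but 50 nM replicate 3 ended the call, with adjusted p of up to 0.195. COP1 itself had -0.12 ± 0.07 at 50 nM (edgeR adjusted p = 0.456). In the list of CSRNP relatives and the axin complex 6 of 9 symbols were tested. AXIN1 and GSK3A were not analysed here, as no row carries their symbols. Of the 6 genes 0 passed in any comparison with edgeR or DESeq2. Beside the shares of all genes given above, this too says nothing about the genes. At an unadjusted p under 0.05 there were 0 at either concentration against control and 1 between the concentrations, AXIN2, at -0.32 ± 0.11 for 250 nM against 50 nM (edgeR adjusted p = 0.536). Against control AXIN2 had 0.10 ± 0.11 at 50 nM and -0.22 ± 0.11 at 250 nM (edgeR adjusted p = 0.742 and 0.61).

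Genes beside the 3 in the rabbit RefSeq assembly mOryCun1.1 were also read, since the counts do not state strand. No protein-coding gene overlapped IER3, TRIB1 or CSRNP1 there. IER3 lies between DDR1 and FLOT1, which had -0.10 ± 0.08 and -0.01 ± 0.06 at 50 nM (edgeR adjusted p = 0.622 and 0.974). TRIB1 has NSMCE2 on one side, at 0.10 ± 0.13 (edgeR adjusted p = 0.815), and LRATD2 on the other, which was not analysed here. CSRNP1 lies between XIRP1 (1.10 ± 0.45, edgeR adjusted p = 0.238) and TTC21A (0.37 ± 0.29, edgeR adjusted p = 0.617). Of the 5 neighbours tested 0 passed with edgeR or DESeq2 in any comparison, but 1 had no DESeq2 adjusted p at 50 nM against control. Over all genes edgeR passed 3.25%, 0.308% and 0.325% in the 3 comparisons, so 0 of 5 says nothing about the neighbours. At an unadjusted p under 0.05 there were 1 at 50 nM, 0 at 250 nM and 1 between the concentrations, XIRP1 in both cases.

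The genes of most similar pattern were found by the root mean square (RMS) difference, over the 9 libraries, between log2 CPM values centred on each gene's mean. Candidates had a symbol, at least 5 CPM and a range of group means at least 0.5 times that of the gene in question. Likeness of the genes found, in group order or in single libraries, follows from this choice and is only described. For IER3 the nearest of 477 candidates were the kinase gene MAP3K12 (RMS 0.06), the AT-hook gene AHDC1 (0.08) and PRR14L (0.10), where the median candidate was at 0.30. MAP3K12 had 21.4 ± 1.28, 14.1 ± 0.287 and 19.5 ± 0.820 CPM in control, 50 nM and 250 nM, and AHDC1 62.0 ± 2.16, 38.6 ± 1.89 and 57.4 ± 1.08 CPM. As in IER3, the 50 nM level was the low one and 250 nM lay just under the control.

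For TRIB1 the nearest of 396 candidates were PTGS2, which encodes the inducible cyclooxygenase COX-2 (RMS 0.11), TMEM218 (0.18) and ERRFI1, a feedback inhibitor of the EGF receptor (0.18), against a median of 0.38. PTGS2 had 76.6 ± 6.88 CPM in the control, 59.2 ± 11.0 CPM at 50 nM and 90.1 ± 1.72 CPM at 250 nM. Within the 50 nM group its libraries had 71.6, 55.1 and 51.0 CPM, so replicate 3 was the lowest there as it was for TRIB1. TMEM218 and ERRFI1 were also lowest in that library, at 4.78 and 180 CPM. As the 3 genes were picked for likeness to TRIB1 over these same libraries, nothing is read from that shared low value. In ERRFI1 the 50 nM and control libraries overlapped, with a log2 difference of -0.04 ± 0.06.

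CSRNP1 was followed most closely, among 916 candidates, by the MAP kinase phosphatase gene DUSP4 (RMS 0.08), by GCDH of lysine breakdown (0.09) and by ENC1 (0.10), with a median of 0.32. DUSP4 had 185 ± 12.8, 229 ± 12.5 and 238 ± 3.96 CPM in control, 50 nM and 250 nM, and ENC1 79.2 ± 5.44, 101 ± 3.68 and 104 ± 1.75 CPM. Both were near their highest level by 50 nM, with 0.05 ± 0.06 and 0.04 ± 0.06 from 50 nM to 250 nM. On log2(FPKM + 1), 6 of the 9 genes were again among the nearest 3, and 8 of 9 among the nearest 10; the exception was TMEM218. Between the 3 genes themselves the RMS difference was 0.27 for IER3 and TRIB1, 0.34 for TRIB1 and CSRNP1, and 0.41 for IER3 and CSRNP1.

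**Figure D3:**
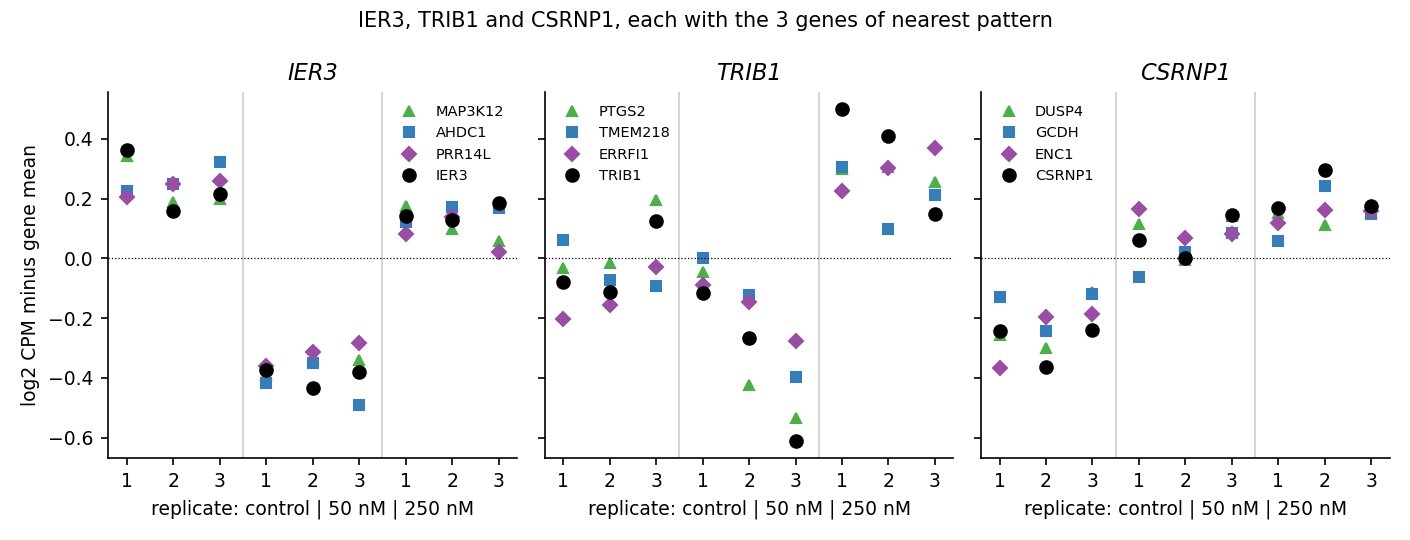
Log2 CPM minus the gene's mean (vertical axis) in the 9 libraries (horizontal axis, replicates 1 to 3 of control, 50 nM and 250 nM) for IER3, TRIB1 and CSRNP1 (black) and the 3 genes nearest to each. In the middle panel TRIB1, PTGS2, TMEM218 and ERRFI1 are all lowest in 50 nM replicate 3, where TRIB1 had 7.39 CPM. The nearest genes were picked for likeness over these same 9 libraries.

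The wider set of immediate early and early response genes held 56 symbols, the 3 genes left out; 39 were in the table and 37 were tested. At 50 nM against control 6 rose, 13 fell and 18 did not pass, with a median log2 difference of -0.07 (-0.002 over all genes). The calls were 51.4% of the genes tested in the list, against 3.25% of all genes. This list and the others were drawn up with earlier results of these data known, so their shares beside those of all genes are descriptions. EGR1, a zinc-finger transcription factor, fell from 305 ± 33.4 to 41.6 ± 9.24 CPM (-2.87 ± 0.16, edgeR adjusted p = 3.93e-08), and FOS fell by 1.55 ± 0.10 (edgeR adjusted p = 3.61e-07). The MAP kinase phosphatase gene DUSP1 fell by 0.87 ± 0.06 (edgeR adjusted p = 3.61e-07) and the matricellular gene CYR61 by 0.73 ± 0.05 (edgeR adjusted p = 1.2e-06). Ranked among these values, IER3 (-0.64) lay between CYR61 and KLF6, TRIB1 (-0.30) between PLK2 and SGK1, and CSRNP1 (0.35) between DUSP4 and MAFF.

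At 250 nM against control 5 genes of the list rose (EGR3, KLF10, DUSP4, PLK3 and ERRFI1) and 3 fell (FOS, DUSP1 and CYR61). The calls were 21.6% of the genes tested in the list, against 0.308% of all genes. FOS changed by -0.61 ± 0.10, DUSP1 by -0.52 ± 0.06 and CYR61 by -0.30 ± 0.05 (edgeR adjusted p = 0.0146, 0.000602 and 0.0245). DUSP4 rose by 0.36 ± 0.06 (edgeR adjusted p = 0.0182). In place of 8 calls, leaving out control replicate 1 gave 3, leaving out control replicate 3 gave 4, and the omission of replicate 2 or 3 of the 250 nM group gave 2 or 1. The calls of FOS and CYR61 ended with each of those 4 libraries, that of CYR61 also with 50 nM replicate 1, and that of DUSP4 with control replicate 1 or 2 or any 250 nM library. Over all settings their adjusted p reached 0.17, 0.198 and 0.189, and that of DUSP1 reached 0.023. For 250 nM against 50 nM, where 0.325% of all genes passed, 10 were higher at 250 nM and 3 lower (KLF10, ZFP36L2 and GADD45G). EGR1 was higher by 2.38 ± 0.15 (edgeR adjusted p = 1.4e-06) and FOS by 0.93 ± 0.10 (edgeR adjusted p = 0.000366). Omitting 250 nM replicate 1 left 7 calls in place of 13, and omitting 250 nM replicate 2 left 6. The first 2 comparisons share their controls and the last shares its libraries with both.

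**Figure D4:**
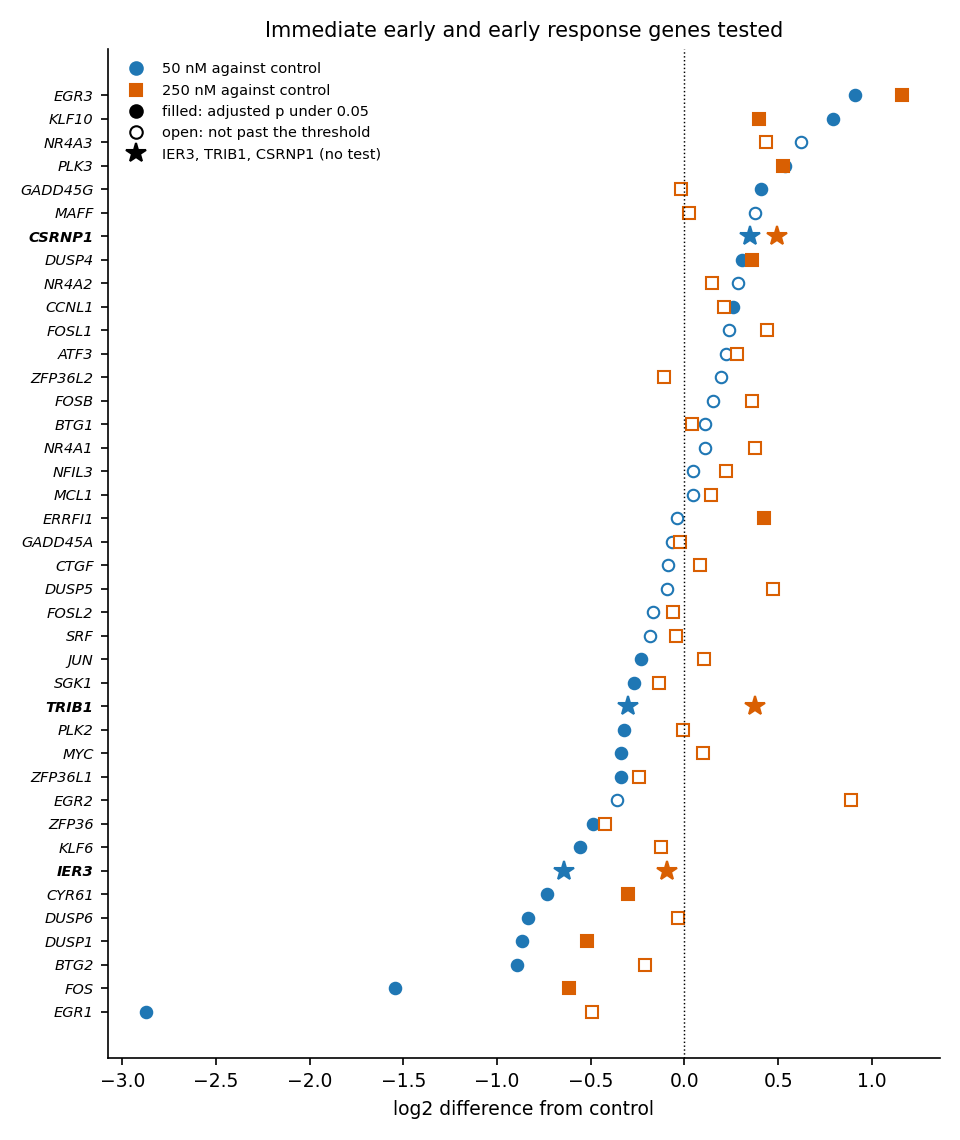
Log2 difference from control (horizontal axis) at 50 nM (blue circles) and 250 nM (orange squares) for the 37 immediate early and early response genes tested, filled where the edgeR adjusted p was under 0.05, with stars for IER3, TRIB1 and CSRNP1, which were not tested. Both series use the same controls; EGR1 is at the lower end for 50 nM (-2.87).

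Each of the 3 orders of group means occurred elsewhere in that list. The order of IER3 (control, 250 nM, 50 nM) was shared by 14 of the 37 genes, 37.8% against 23.2% of all genes tested, among them EGR1, FOS, DUSP1, DUSP6, BTG2 and KLF6. The order of TRIB1 (250 nM, control, 50 nM) was that of 6 genes, 16.2% against 12.2% of all genes: EGR2, JUN, MYC, DUSP5, CTGF and ERRFI1. The order of CSRNP1 (250 nM, 50 nM, control) was that of 9 genes, 24.3% against 14.0% of all genes, among them EGR3, FOSL1, ATF3, NR4A1 and DUSP4. An order of means takes no account of error, and the shares are descriptions.

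Genes around NF-κB, which acts on the IER3 promoter, were next. Of 33 symbols 28 were tested. RELA and RELB were not analysed here, as no row carries their symbols. At 50 nM 6 rose and 0 fell, and at 250 nM 5 (REL, NFKBIA, NFKBIZ, TNFAIP3 and IL6) rose and 0 fell. That is 21.4% and 17.9% of the genes tested in the list, against 3.25% and 0.308% of all genes. Median log2 differences were 0.12 and 0.05, against -0.002 and -0.005 over all genes. Lower genes numbered 1 and 0 at an unadjusted p under 0.05 with edgeR, and 0 and 0 with DESeq2. NFKBIA, the gene of the inhibitor IκBα, rose by 1.28 ± 0.07 at 50 nM (edgeR adjusted p = 3.34e-08) and by 0.74 ± 0.07 at 250 nM (edgeR adjusted p = 6.48e-05). TNFAIP3, the gene of the ubiquitin-editing enzyme A20, rose by 1.77 ± 0.11 and 0.86 ± 0.11 (edgeR adjusted p = 2.71e-07 and 0.00393). NFKBIZ rose by 0.60 ± 0.08 at either concentration (edgeR adjusted p = 0.000633 and 0.00476), and REL, an NF-κB subunit, by 1.56 ± 0.20 and 1.08 ± 0.20 (edgeR adjusted p = 0.000418 and 0.0288). At 250 nM the call of REL, which had only 1.59 ± 0.124 CPM in the control, ended without any control library, 50 nM replicate 1 or 250 nM replicate 1 or 3 (adjusted p up to 0.23 over all settings), and that of NFKBIZ ended without 250 nM replicate 3 (up to 0.137). In limma on unfiltered log2(FPKM + 1) the 250 nM calls of NFKBIZ and TNFAIP3 also ended, each with an adjusted p of 0.137. On log2(FPKM + 1) REL differed from control by 0.89 at 50 nM, still called, and by 0.56 at 250 nM, not called. NFKBIA and TNFAIP3 were lower at 250 nM than at 50 nM, by -0.54 ± 0.07 and -0.92 ± 0.11 (edgeR adjusted p = 0.000852 and 0.000836).

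The ERK pathway and its feedback genes, among which TRIB1 acts through MEK1, had 24 genes tested of 29 symbols. At 50 nM 2 rose (DUSP4 and ETV5) and 3 fell, and at 250 nM 1 rose (DUSP4) and 0 fell, also 0 at an unadjusted p under 0.05 with edgeR and with DESeq2. The edgeR calls at 50 nM and 250 nM were 20.8% and 4.17% of the genes tested in the list, against 3.25% and 0.308% of all genes. The only call at 250 nM, DUSP4, was lost under 8 of 20 other settings. DUSP4 and DUSP6 also belong to the immediate early list and were counted there, so these lists are not separate. The medians were 0.11 and 0.13, against -0.002 and -0.005 over all genes. At 50 nM an unadjusted p under 0.05 with edgeR was reached by 8 higher and 3 lower genes, and DESeq2 called 3 higher and 3 lower. Feedback inhibitors did not fall as a class. SPRY4, DUSP5, DUSP7, SPRED1, SPRED2 and SPRED3 did not pass with edgeR at 50 nM. Their values ran from -0.09 ± 0.16 (DUSP5) to 0.40 ± 0.12 (SPRY4, called higher by DESeq2). The 3 that fell were the ERK phosphatase gene DUSP6, from 15.3 ± 1.38 to 8.54 ± 0.720 CPM (-0.84 ± 0.10, edgeR adjusted p = 0.000168), SPRY2 (-0.70 ± 0.12, edgeR adjusted p = 0.00358) and SPRY1 (-0.61 ± 0.10, edgeR adjusted p = 0.0029). Their differences from control at 250 nM were -0.04 ± 0.09, 0.16 ± 0.11 and 0.01 ± 0.10 (edgeR adjusted p = 0.968, 0.803 and 0.986). From 50 nM to 250 nM all 3 were higher, by 0.80 ± 0.10, 0.86 ± 0.12 and 0.62 ± 0.10 (edgeR adjusted p = 0.000836, 0.00209 and 0.0081). DUSP4 rose by 0.31 ± 0.06 at 50 nM (edgeR adjusted p = 0.0112), a call that was lost without 50 nM replicate 1 and in limma on FPKM, with adjusted p of up to 0.105 over all settings.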

How the data were processed

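RNA of 9 HA-VSMC libraries was compared, 3 a group by sample title. Values as the authors deposited them are an estimated count and an FPKM for every gene in each library. Trim Galore, TopHat2 2.1.1, Cufflinks and Cuffdiff are named per the submitters' processing notes; build, annotation and strand setting are not stated there. A small-RNA kit is named for the mRNA libraries per the labels' protocols. Low counts pile up at multiples of 4, so about 4 units stand for 1 fragment. Counts are whole and were used as deposited; 0 columns belonged to other samples.

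Genes were filtered with filterByExpr (minimum count 10) and fitted with edgeR 4.0.16 in R 4.3.3 (quasi-likelihood test, TMM factors, all 9 libraries), with Benjamini-Hochberg adjustment over 12324 genes a comparison and a threshold of 0.05. SE is the size of the log2 difference over the root of F. The method was tested on simulated data. Libraries of a group differed by more than counting noise (chi-square per degree of freedom 3.08 to 11.6). Alternatives used DESeq2 1.42.0, limma 3.58.1 on log2(FPKM + 1) and log2(FPKM + 0.1), other factors and filters, only 2 groups, a replicate block and the omission of single libraries. A fit to counts divided by 4 was chosen after seeing the data. IER3, TRIB1, CSRNP1 and the 6 lists (154 symbols, 115 in the table, 112 tested) were chosen with earlier results of these data known. Named genes are the 3, their relatives, up to 4 genes of lowest F-test p per list among those passing against control, and the 3 nearest patterns for each. Neighbours, BCL2L11, DDIT3, COP1, AXIN2 and genes that only place the 3 in a ranking, fill a short count or share an order of means were named after values were seen. The same holds for SPRY4, DUSP5, DUSP7, SPRED1, SPRED2 and SPRED3.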

Additional observations from a re-analysis of the deposited data

How the results depend on the processing

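Over 20 alternatives and 9 differences of IER3, TRIB1 and CSRNP1, all 180 values kept their sign, and 176 moved by less than the spread between replicates. The other 4 were those of CSRNP1 on log2(FPKM + 1), with or without a filter: 0.24 at 50 nM and 0.37 at 250 nM. Many of the alternatives omit a single library, in part from a group that is not compared, and could hardly move a value beyond that spread. The count of 176 is thus no measure of robustness. TRIB1 at 50 nM against control went from -0.30 to -0.17 without 50 nM replicate 3, and is counted among the 176. Genes past the threshold at 50 nM numbered 244 with only the 2 groups compared, 702 by DESeq2, 234 by limma on unfiltered log2(FPKM + 1) and 187 to 564 with a library left out. At 250 nM against control they numbered 140 by DESeq2, 14 and 15 by limma on log2(FPKM + 1) and log2(FPKM + 0.1), 4 unfiltered, and 5 to 56 with a library left out. For 250 nM against 50 nM they numbered 99 by DESeq2, 11 by unfiltered limma and 21 to 50 with a library left out. Called genes of the immediate early list at 250 nM against control numbered 13 by DESeq2, 3 by limma on either FPKM scale, 1 unfiltered and 1 to 8 with a library left out; for 250 nM against 50 nM they numbered 3 by unfiltered limma and 6 to 14. Of 21 calls of other named genes, 13 held in all alternatives; 52 of 418 values lost the call and 0 changed sign. On log2(FPKM + 1) 98 genes were higher and 292 lower at 50 nM, against 191 and 210 in the fit to counts. Same-numbered libraries did not deviate together (correlations -0.03 to 0.04 over 9 pairs); with a replicate block 492, 43 and 42 genes passed. The causes of these changes were not tested. TRIB1 had the fewest fragments of the 3 genes, 101 to 239 a library, and spreads of 17.1% at 50 nM and 12.4% at 250 nM against a counting error of 6.47% to 9.96%.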
